A study of Mus musculus with 66 samples.

Results

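H3K9me3 and H3K36me3 were compared within the same pools of adolescent mouse prefrontal cortex (PFC). Members were chosen by pairing the 2 island lists that carry the same pool number, which gave 44 of the 66 samples of the series, one list of each mark for each of 22 pools. The other 22 samples are the input libraries of the same pools, and their reads enter here through the input column of the island lists. Each pool held PFC tissue of 3 DBA/2J mice, an inbred strain. The groups were 6 pools of male mice given ethanol, 5 of male mice given water, 6 of female mice given ethanol and 5 of female mice given water. Ethanol mice received 4 g/kg of 25% w/v ethanol by gavage on 8 days between postnatal day (PND) 29 and PND 42, control mice received water on the same days, and the PFC was dissected 24 h later. A pool averages 3 animals and the tissue is bulk, so fewer cells that carry a mark and less of the mark in each cell cannot be told apart.

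H3K9me3, trimethylation of lysine 9 of histone H3, is the mark of constitutive heterochromatin. It is laid down by the SUV39H and SETDB1 enzymes, is read by HP1 proteins, and is known for covering satellite repeats, transposable elements, and large silent gene families such as the odorant and pheromone receptors. H3K36me3 is laid down by SETD2, which travels with elongating RNA polymerase II, so the mark lies in the bodies of transcribed genes. The marks are usually described as separate territories. Genes for zinc-finger proteins of the KRAB type are a known exception, where both have been described together.

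An island is a run of 200 bp windows in which the study's peak caller, SICER, found more ChIP reads than a random background would give. The lists hold every island, whether or not it was enriched over input, and each island has a false discovery rate (FDR) against the input. The results below use all listed islands. Library levels, overlaps, classes and counts of calls are also given for islands with FDR ≤ 0.01, and gene lists, profiles, exons and zinc-finger arrays only for all islands. On chromosomes 1 to 19 the H3K9me3 libraries held 4788682 to 13163584 island reads and the H3K36me3 libraries 1599894 to 4565158.

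Sequences of some of the genes and loci described below are shown first. Dhx30, an RNA helicase gene, was among the genes of largest H3K36me3 excess and had no listed H3K9me3 island in any pool. Vmn2r95, a pheromone receptor gene, was among those of largest H3K9me3 excess and had an H3K36me3 island in 1 pool. Their promoters (RefSeq, GRCm38.p6, 250 bases before to 50 after the start site) lie at chr9:110117567-110117866 on the minus strand and chr17:18423854-18424153 on the plus strand, and the CG dinucleotides are in capitals.
Dhx30 promoter: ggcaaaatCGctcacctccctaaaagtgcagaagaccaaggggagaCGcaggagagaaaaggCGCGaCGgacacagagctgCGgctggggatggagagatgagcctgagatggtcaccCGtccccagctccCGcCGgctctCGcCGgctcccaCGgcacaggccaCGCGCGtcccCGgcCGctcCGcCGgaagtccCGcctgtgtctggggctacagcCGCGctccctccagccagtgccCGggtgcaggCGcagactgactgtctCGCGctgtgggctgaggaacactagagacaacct
Vmn2r95 promoter: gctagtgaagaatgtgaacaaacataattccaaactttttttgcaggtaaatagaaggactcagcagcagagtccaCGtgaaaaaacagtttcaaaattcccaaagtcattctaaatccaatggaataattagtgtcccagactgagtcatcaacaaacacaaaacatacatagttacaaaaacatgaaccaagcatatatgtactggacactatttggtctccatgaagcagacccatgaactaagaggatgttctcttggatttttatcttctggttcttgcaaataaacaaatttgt
Zfp991 carried both marks over its zinc-finger array, a run of repeated linkers. It is an exception: 6 of 158 such arrays were at least 50% covered by both marks. The stretch at chr4:147178954-147179133 (GRCm38, plus strand) is shown because it repeats the linker between zinc fingers, and matches to the linker pattern (codons for threonine, glycine, and glutamate or aspartate, then AA) are in capitals.
Zfp991 array: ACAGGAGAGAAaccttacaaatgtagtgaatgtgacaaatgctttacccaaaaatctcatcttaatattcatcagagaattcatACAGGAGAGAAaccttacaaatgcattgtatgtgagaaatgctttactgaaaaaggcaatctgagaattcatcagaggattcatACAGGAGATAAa
The longest tandem repeat under both marks was at the assembled start of chromosome 9. One repeat unit at chr9:3010001-3010234 (GRCm38, plus strand) follows, with CG in capitals.
Repeat unit: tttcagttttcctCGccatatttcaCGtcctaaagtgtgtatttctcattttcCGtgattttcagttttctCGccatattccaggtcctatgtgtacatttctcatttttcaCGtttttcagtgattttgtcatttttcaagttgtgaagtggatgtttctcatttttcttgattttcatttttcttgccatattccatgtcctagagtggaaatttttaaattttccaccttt

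The marks differed in extent and in place. H3K9me3 islands covered 152 Mb ± 20.8 (SD, n = 22) of the autosomes and H3K36me3 islands 94.0 Mb ± 15.6, with more under H3K9me3 in 21 of 22 pools. Of the H3K9me3 island length, 17.5% ± 0.258 lay in protein-coding gene bodies, below the 40.3% of the autosomes that these bodies occupy. Of the H3K36me3 island length, 30.7% ± 5.93 lay in gene bodies, more than for H3K9me3 in every pool. The H3K9me3 share varied little, from 17.1% to 18.1%, whereas the H3K36me3 share ran from 21.6% to 41.7%.

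With islands of FDR ≤ 0.01 the contrast in place widened, to 16.1% ± 0.298 for H3K9me3 and 41.9% ± 13.8 for H3K36me3. More of the H3K9me3 islands passed this FDR, 73.4% ± 11.9 against 41.4% ± 15.8 of the H3K36me3 islands. All 5 library levels compared (island number, covered length, share in genes, share past the FDR and median enrichment over input) differed between marks by a two-sided sign-flip permutation test over 22 pools (100000 resamples, largest adjusted p = 2e-05, close to the smallest that the resamples can give). Island number and covered length also depend on the number of reads and on the gap over which the caller joined windows. That gap was 400 bp for H3K9me3 and 600 bp for H3K36me3, and the part of either was not tested. The median enrichment was 1.49 ± 0.104 for H3K9me3 and 1.31 ± 0.162 for H3K36me3. With FDR ≤ 0.01 it was 1.62 ± 0.0579 and 1.67 ± 0.151, the opposite order, and this did not pass (adjusted p = 0.108).

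**Figure D1:**
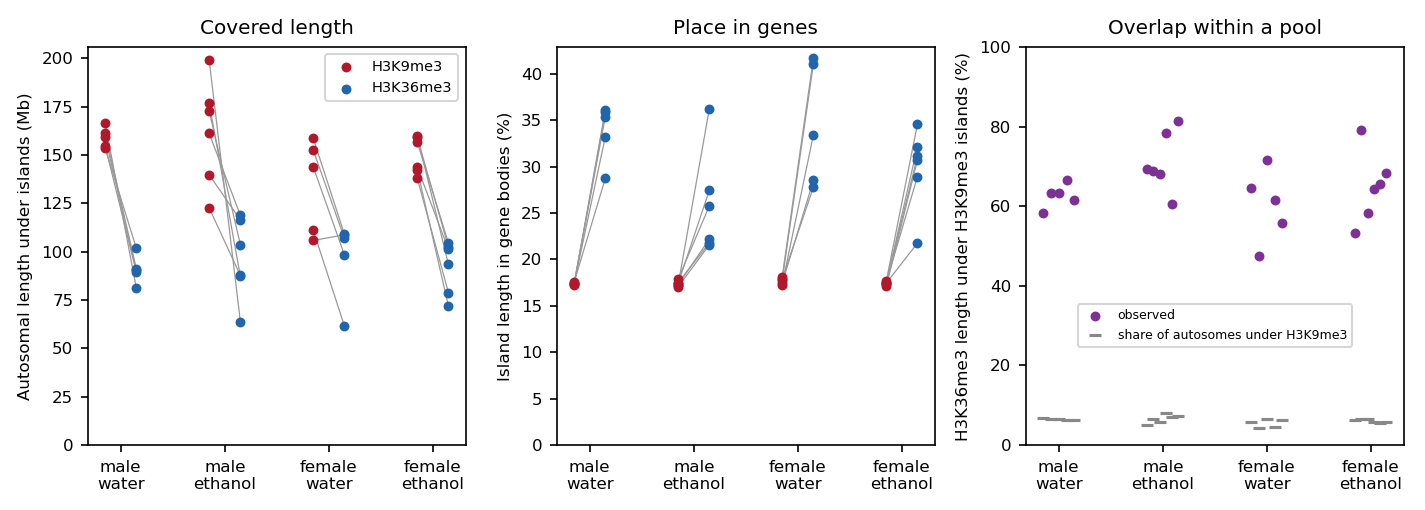
Left, autosomal length under islands (Mb); middle, share of that length in gene bodies (%), with a grey line joining the marks of one pool; right, share of H3K36me3 island length that lies under H3K9me3 islands of the same pool (%), with the share of the autosomes under H3K9me3 as grey dashes. Points are pools in 4 groups. H3K36me3 is above H3K9me3 in gene share in all 22 pools, and the overlap runs from 47.5% to 81.5%.

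Most H3K36me3 island length lay under an H3K9me3 island. The share was 47.5% in the lowest pool, 64.5% at the median and 81.5% in the highest, whereas H3K9me3 islands covered 4.30% to 8.08% of the autosomes. The overlap was therefore 8.38-fold to 13.9-fold of what the covered lengths alone would give. In the other direction 25.2% to 56.6% of the H3K9me3 length lay under H3K36me3.

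In 10 of 22 pools the H3K36me3 islands overlapped the H3K9me3 islands of their own pool more than the median of the other pools, and own-pool overlap was the highest in 1 pool. With FDR ≤ 0.01 on both lists the overlap was 13.5% to 73.4%, with a median of 42.4%, and own-pool overlap was above the median of the other pools in 18 of 22 pools. Pools whose H3K36me3 islands lay less in genes had the higher overlap (across 22 pools, Pearson's r = -0.83, Spearman's rank correlation = -0.86, and r = -0.76 without the 2 pools farthest from the median gene share). Both axes of this description come from the same H3K36me3 library.

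Each 200 bp window of the autosomes was then assigned to the mark that covered it alone, or to both, in at least 12 of 22 pools. H3K9me3 alone held 57.9 Mb, both marks held 50.7 Mb, and H3K36me3 alone held 5.61 Mb. These territories were of different kinds. In RefSeq's soft-masked sequence 87.5% of the H3K9me3 territory and 92.7% of the shared territory was repeat, against 56.2% of the H3K36me3 territory and 33.5% of the autosomes. Gene bodies made up 76.0% of the H3K36me3 territory, 13.8% of the H3K9me3 territory and 19.8% of the shared territory.

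In the lists of each mark, input reads were denser in the shared territory than in that mark's own territory in at least 21 of 22 pools. In the H3K9me3 lists the shared territory held 38.3 to 49.0 input reads per covered kb, with a median of 44.5, and the H3K9me3 territory 19.8 to 25.4, with a median of 21.4. The ratio of the 2 was 1.83 to 2.14 and was above 1 in 22 of 22 pools. Against the H3K36me3 territory in the H3K36me3 lists it was 0.965 to 1.98 and above 1 in 21 pools. The H3K36me3 territory was itself 1.202 to 2.17 times as dense as the H3K9me3 territory. H3K9me3 islands that lay in the H3K36me3 territory held 31.3 to 155 input reads per covered kb, with a median of 49.9. The H3K9me3 ChIP over scaled input, with the study's own scaling for each library, was 1.58 at the median pool in the H3K9me3 territory and 1.25 in the shared territory. For H3K36me3 it was 1.28 in its own territory and 1.02 in the shared one, where it ran from 0.829 to 1.55. Each pool has 1 input for both marks: islands with the same boundaries in both lists had equal input counts in all 22 pools. How much of the shared territory comes from the dense input was not tested.

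**Figure D2:**
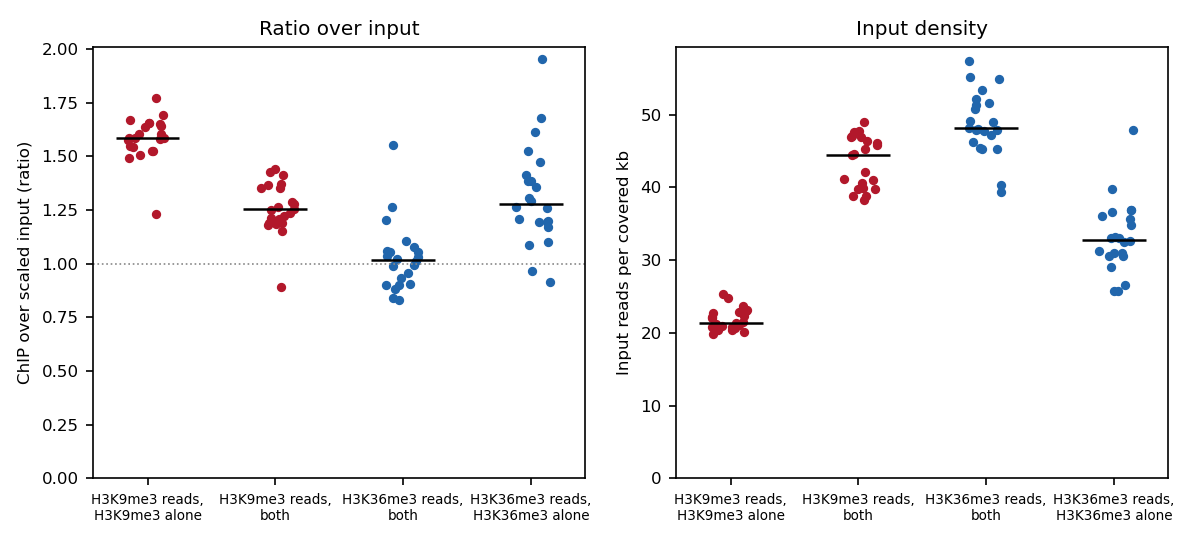
ChIP reads over scaled input (left, ratio) and input reads per covered kb (right) for each of 22 pools in windows of H3K9me3 alone, of both marks and of H3K36me3 alone. Black lines are medians. Median input density in the shared windows (44.5 in H3K9me3 lists and 48.1 in H3K36me3 lists) lies above that in each mark's own windows (21.4 and 32.8). The H3K36me3 ratio in shared windows centres on 1.02.

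The shared territory included the satellite stretch whose repeat unit is shown above. At chr9:3000001-3038400, 38.4 kb that GENCODE gives 9 protein-coding gene models, bases 234 positions apart were equal at 71.4% of positions. Both marks covered 100% of it in every pool. It held 7347 to 12872 input reads per kb in the H3K9me3 lists, and it took 4.25% to 6.35% of all H3K9me3 island reads and 5.02% to 16.2% of all H3K36me3 island reads. The ChIP over input ratio there was 0.874 at the median pool for H3K9me3, above 1 in 7 of 22 pools, and 0.693 for H3K36me3, above 1 in 4 pools. Of the 84 shared stretches of 10 kb or longer, this was the only 1 in which a single spacing under 600 bases gave 70% or more equal bases.

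The 5 longest shared stretches were all on chromosome 8. Of these, 4 lay between chr8:20084801 and chr8:20661000, were 43.8 to 89.2 kb long, and had median H3K9me3 ratios of 1.43 to 1.62 and median H3K36me3 ratios of 1.09 to 1.25, with 76.5 to 108 input reads per kb. The fifth, chr8:123537401-123624200, was 86.8 kb long and had a ratio of 0.746 for H3K9me3 and 1.13 for H3K36me3. Protein-coding models in these stretches were Gm21119, Gm15319 and Gm20388, predicted genes with no assigned role.

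Gene bodies were classed by whether islands of a mark covered at least 10% of the body in a pool. A class was given when the same state held in at least 12 of 22 pools. Of 20807 autosomal protein-coding genes (GENCODE vM21, GRCm38), 452 were of H3K9me3 alone, 494 of H3K36me3 alone, 454 of both, 19011 of neither and 396 changed state among pools. At the edge of the rule, 53, 94 and 26 genes of the first 3 classes held their state in exactly 12 pools, and 63, 119 and 25 genes held it in 11. Genes with both marks were the steadiest. Of the 454, 102 held the state in all 22 pools, against 7 of H3K9me3 alone and 1 of H3K36me3 alone.

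The classes differed in what their genes were. Of the 452 H3K9me3 genes, 115 (25.4%) were on chromosome 7, which holds 9.72% of all genes. They included 57 vomeronasal type 2 receptors (47.9% of that family), 38 type 1 receptors (18.4%), 21 zinc-finger genes (5.12%) and 52 olfactory receptors (4.78%), against 2.17% of all genes. The H3K36me3 class held no olfactory or vomeronasal receptor and 20 zinc-finger genes (4.88%, against 2.37% of all genes). The class of both held 20 type 2 receptors (16.8%), 39 zinc-finger genes (9.51%), 8 type 1 receptors (3.86%) and 20 olfactory receptors (1.84%), against 2.18% of all genes. Predicted genes with no name of their own made up 17.5%, 4.05% and 23.3% of the 3 classes and 8.48% of all genes.

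Promoters followed the classes. Counted in the 300 bases around the annotated start (GRCm38), the median number of CG dinucleotides was 18 in the H3K36me3 class, 2 in the H3K9me3 class, 3 in the class of both and 12 over all genes. At least 10 were present in 81.2% of H3K36me3 promoters, 10.6% of H3K9me3 promoters, 19.4% of those of both and 54.5% of all promoters. The RefSeq windows of Dhx30 and Vmn2r95 shown above, whose starts differ somewhat from those of GENCODE, hold 26 and 1.

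**Figure D3:**
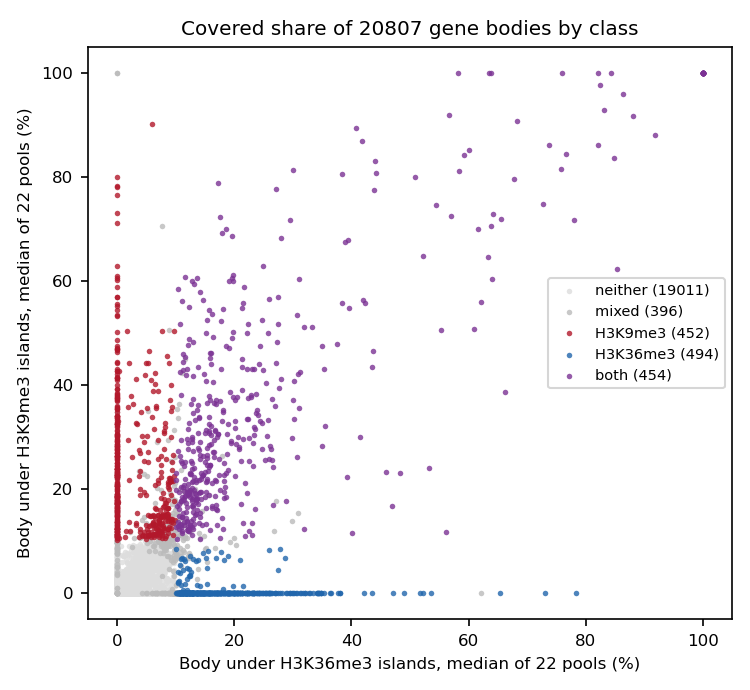
Each point is 1 of 20807 gene bodies, placed by the share of the body under H3K36me3 islands (horizontal, %) and under H3K9me3 islands (vertical, %), each the median of 22 pools, and coloured by class. Genes of one mark lie along the axes, and genes of both extend to 100% of each.

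Reads were compared between marks in a paired edgeR quasi-likelihood fit (island reads of each gene, pool as block, library size as total island reads). A gene was called when its adjusted p was at most 0.05 and its direction was the same in at least 20 of 22 pools. Of 3789 genes with enough reads in one of the marks, 1175 (31%) were called, 327 (8.63%) with more H3K9me3 and 848 (22.4%) with more H3K36me3. The fit compares shares of island reads, and the median log2 ratio over tested genes was -0.43. TMM scaling moved that median to -0.02 and the split to 681 with more H3K9me3 and 601 with more H3K36me3. With FDR ≤ 0.01 there were 235 and 124 calls. By covered share, which needs no library scaling, limma on the within-pool differences called 721 genes (8.47% of 8515) for H3K9me3 and 423 (4.97%) for H3K36me3. With FDR ≤ 0.01 these were 800 and 72. Covered share still depends on depth and on the gap setting of the caller, and both differed between marks. Their part in these counts was not tested.

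The genes with the largest excess of H3K9me3 were 4 vomeronasal (pheromone) receptors, an odorant receptor, a cytochrome P450, a zinc-finger gene and AA792892, a gene with no assigned role. Vmn2r95 (chr17:18424078-18460905), a type 2 vomeronasal receptor, had 9.23% of its body under H3K9me3 in the lowest pool, 29.3% at the median and 52.1% in the highest. It had an H3K36me3 island in 1 of 22 pools, over 9.23% of the body. H3K9me3 had the larger share of reads in 22 of 22 pools, and the difference was 27.9 points of covered share ± 2.51 (SE).

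Vmn1r72 (chr7:11664479-11680147), a type 1 vomeronasal receptor, was covered over 11.5%, 46.9% and 66.04% of its body by H3K9me3 in the lowest, median and highest pools, and by H3K36me3 in 2 pools, at most over 12.4%. Vmn1r61, also on chromosome 7, had H3K9me3 in 21 pools, with a median of 47.0%, and no listed H3K36me3 island in any pool. Vmn2r100 had none either, and had H3K9me3 in 20 pools, with a median of 15.1%. These genes were chosen for their ratio, so the contrast between the marks in them is a description.

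Outside the vomeronasal families, Olfr115, an odorant receptor gene, had a median of 30.3% under H3K9me3. Cyp3a59, of the drug-metabolizing cytochrome P450 3A family, had 18.5%, Zfp616, a zinc-finger gene, had 27.7%, and AA792892 had 22.3%. Each had H3K9me3 in 21 pools and H3K36me3 in 1 or 2 pools. All 8 of these genes stayed called with FDR ≤ 0.01, with TMM scaling and with any 1 pool left out.

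The genes with the largest excess of H3K36me3 were longer than the median gene of 17.6 kb. None of the 8 had a listed H3K9me3 island in any pool, so no ratio is given. They were chosen for their ratio and could be tested only through H3K36me3, so the contrast in them is a description. Dhx30 (chr9:110084320-110117830) had H3K36me3 over 8.36% of its body in the lowest pool, 31.3% at the median and 48.3% in the highest. The difference was 31.4 points in size ± 2.09 (SE). Psmd11 (chr11:80428615-80473248), a subunit of the proteasome lid, had a median of 23.1% and a highest value of 46.2%. In 2 pools it had no island.

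Zfyve26, which acts in endosome and autophagy trafficking, had a median of 16.7%, and Arhgap23, which encodes a GTPase-activating protein, had 13.01%. Pi4ka, the kinase that makes phosphatidylinositol 4-phosphate at the plasma membrane, had 9.76%, from 0.794% to 30.6%. Kif1b (8.91%), an axonal transport motor, Depdc5 (8.50%), a subunit of the GATOR1 brake on mTORC1, and Lrp1 (10.1%), an endocytic lipoprotein receptor, lay near or under the 10% line, so that genes with a clear excess of reads fell in the class of neither or changed state. Of the 848 genes called for H3K36me3, 612 were in the class of neither. With FDR ≤ 0.01, Kif1b, Depdc5 and Zfyve26 were not called. The H3K36me3 pools spread widely: the highest pool had 318 RPM (island reads scaled to the library total) on Pi4ka and the lowest 15.3.

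Loci of one mark were also sought in windows of 100 kb without regard to genes. Of 16437 windows tested by edgeR, 3461 (21.1%) were called, 2220 (13.5%) with more H3K9me3 and 1241 (7.55%) with more H3K36me3. With FDR ≤ 0.01 the split was 1594 and 140. A protein-coding gene lay in 90.9% of the H3K36me3 windows, 42.6% of the H3K9me3 windows and 55.7% of all tested. On chromosome 7, 31.3% of tested windows were called for H3K9me3, and on chromosome 17, 21.2%. The other chromosomes ranged from 7.76% to 17.1%.

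The windows with the largest ratios had islands of one mark only. chr6:125100001-125200000, which holds Gapdh, Chd4, Nop2 and Ncapd2, had a median of 128 RPM of H3K36me3 and no listed H3K9me3 island. chr9:110100001-110200000, with Dhx30 and Smarcc1, had a median of 123, and chr7:27300001-27400000, with Ltbp4, Shkbp1 and Sptbn4, had 121. For H3K9me3 they were chr5:94900001-95000000 with Gm6367 (median of 36.5 RPM), chr13:67900001-68000000 with no protein-coding gene (24.8) and chr7:7000001-7100000 with Aurkc, a germ-cell Aurora kinase (17.9). None had a listed H3K36me3 island.

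The 8 genes most covered by both marks were of 2.70 to 61.6 kb and lay on 6 chromosomes. Levels of genes with near-identical copies, as several of these are, are uncertain, because reads that align to several places were discarded, as stated for H3K9me3. Duxf3, a double-homeobox gene of a tandem array on chromosome 10, was under both marks over 100% of its 2.70 kb in every pool. Sfi1 (chr11:3131850-3193463), a centrosome protein gene, was under H3K9me3 over 84.4% to 92.5% and under H3K36me3 over 87.7% to 97.4%. Its ChIP over input ratio was 1.545 for H3K9me3 and 1.202 for H3K36me3 at the median, and its input density was 120 reads per kb.

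Input density was lower in others of this group. Mroh2a (chr1:88226986-88262289) was covered over a median of 96.0% by H3K9me3 and 86.4% by H3K36me3, with ratios of 1.87 and 1.32 and 26.9 input reads per kb. Sp110, a nuclear body protein gene, had 86.1% and 73.8%, with ratios of 1.94 and 1.39. Zfp960 had 84.5% and 76.6%, with ratios of 1.82 and 1.38. Itln1, a lectin gene, had 83.7% and 84.9% with the lower ratios of 1.27 and 1.16, Speer4d, of a testis-expressed family, had 91.7% and 88.1% with 1.35 and 1.05, and Zfp981 had 73.0% and 64.2% with 2.17 and 1.28.

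Which mark held the larger share of reads in these genes depended on the scaling. Sfi1, Itln1, Duxf3 and Zfp960 were called for H3K36me3 (log2 ratios of -0.42, -0.57, -0.35 and -0.22), and with TMM scaling the first 3 were not called and Zfp960 was called for H3K9me3. Zfp981 was called for H3K9me3 (0.17) in both. Of the 454 genes of both marks, 424 had median ratios over input above 1 for both. Summed over the class, the ratio was 1.11 for H3K9me3 at the median pool, above 1 in 19 of 22 pools, and 0.839 for H3K36me3, above 1 in 4. This sum weights genes by their reads, and the class held 122 input reads per covered kb in the H3K36me3 lists at the median pool. Gene models of very dense input, such as those of the chromosome 9 satellite stretch (H3K36me3 ratio of 0.693), weigh most in it. Their part in the sum was not separated. With FDR ≤ 0.01 on both lists, 70 of the 454 remained in the class, 262 became H3K9me3 alone, 10 became H3K36me3 alone, 48 fell to neither and the rest changed state among pools.

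Genes named Zfp with a number made up 22 of those 70 and 38 of the 454. The wider zinc-finger family held 410 of all 20807 genes. Of the 22 genes, 12 lay in a cluster on chromosome 4, which was chosen for description after its values were seen. From Zfp990 to Zfp933 (chr4:145510759-147848366) there were 18 genes named Zfp. In the class of both were 15 of the 18 (2.18% of all genes were), 12 of them with FDR ≤ 0.01 as well. Another 2 were of H3K9me3 alone (2.17% of all genes). Over the 18 genes the median covered share was 64.7% for H3K9me3, from 0% to 91.9%, and 31.6% for H3K36me3, from 0% to 64.2%. Ratios over input ran from 1.16 to 2.396 for H3K9me3 and up to 1.68 for H3K36me3. Zfp992 (chr4:146449023-146470292) is an example, with 74.7% under H3K9me3 and 54.4% under H3K36me3, or 74.7% and 49.7% with FDR ≤ 0.01, and 22.9 input reads per kb, near the 21.4 of windows of H3K9me3 alone. Zfp933, at the end of the cluster, had medians of 0% for both.

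Across the whole family the mean covered shares of the marks were closer together. The mean covered share of 410 zinc-finger genes was 6.65% for H3K9me3 at the median pool, from 4.64% to 8.67%, and 5.68% for H3K36me3, from 3.49% to 11.4%, with H3K9me3 higher in 14 of 22 pools. The family held genes of each kind: 21 of H3K9me3 alone, 20 of H3K36me3 alone, 39 of both, 304 of neither and 26 that changed state. The first 3 were 5.12%, 4.88% and 9.51% of the family, against 2.17%, 2.37% and 2.18% of all genes. Of 107 tested by reads, 25 were called for H3K9me3 and 12 for H3K36me3, against 8.63% and 22.4% of all tested genes. Their median log2 ratio was -0.04, against -0.43 over all tested genes. By covered share 38 of 219 tested were called for H3K9me3 and 5 for H3K36me3, against 8.47% and 4.97% of all. Zfp60, Zfp641, Zfp810 and Zfp59 had medians of 24.2%, 25.5%, 17.2% and 27.5% under H3K36me3 and 0% under H3K9me3, whereas Zfp977 and Zfp976 had 29.4% and 23.8% under H3K9me3 and 0% under H3K36me3.

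Within zinc-finger genes, islands lay less on the finger array than on the rest of the gene. Arrays were located as at least 5 matches on the gene's strand to the linker pattern given above, with gaps of at most 200 bases. They were found in 158 of 420 genes of zinc-finger name (37.6%) and in 89 of 20387 others (0.437%). The 420 are not the same set as the 410 of the family above. The arrays were covered by H3K9me3 over 9.28% at the median pool and the rest of these genes over 12.1%, with the array lower in 21 of 22 pools. For H3K36me3 the values were 5.10% and 8.64%, also lower in 21 of 22 pools. Both differences gave a permutation p of 1e-05 (two-sided sign-flip test over 22 pools), the smallest that the resamples can give. Arrays were at least 50% covered by H3K9me3 in 13 genes and by H3K36me3 in 6, all among the 13. Zfp991, whose array is shown above, was one of these, with a median of 100% for each mark.

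The receptor families were of H3K9me3 in every pool. The mean covered share of 119 vomeronasal type 2 receptor genes was 22.0% for H3K9me3 at the median pool, from 11.5% to 34.0%, and 4.97% for H3K36me3, from 2.73% to 11.5%. For 207 type 1 receptor genes the medians were 8.07% and 1.29%, and for 1087 olfactory receptor genes 2.77% and 0.660%. H3K9me3 was the higher mark in 22 of 22 pools in all 3 families. By covered share 70 of 106 type 2, 28 of 72 type 1 and 29 of 188 olfactory receptor genes tested were called for H3K9me3, against 8.47% of all genes tested. By reads 58 of 88, 22 of 44 and 15 of 66 were called for H3K9me3, against 8.63%. None of these was called for H3K36me3 in either fit. The type 2 family held most of its members in a class with H3K9me3 (57 alone and 20 with both, of 119). Of the 1087 olfactory receptors 997 were in the class of neither, near the 91.4% of all genes.

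**Figure D4:**
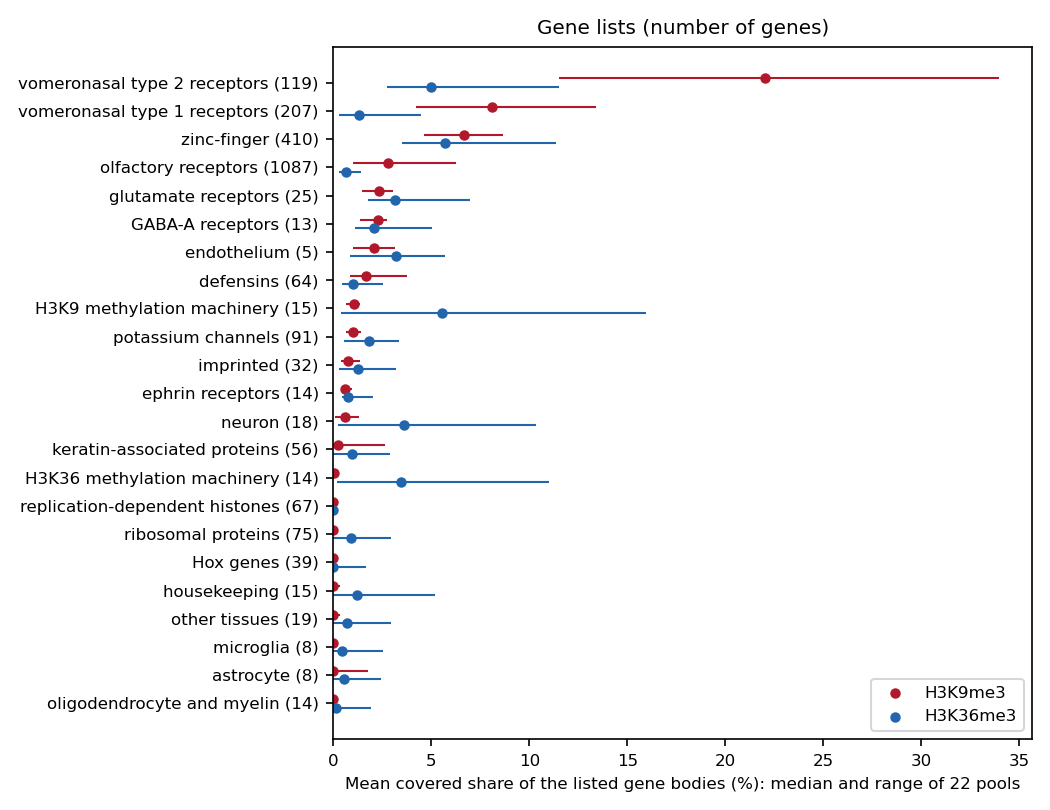
Mean covered share (%) of the gene bodies of each list in the H3K9me3 libraries (red) and the H3K36me3 libraries (blue). Points are the median of 22 pools and lines run from the lowest to the highest pool; the number of genes is in brackets. In red the type 2 (22.0%) and type 1 (8.07%) vomeronasal receptors and the zinc-finger genes (6.65%) lie farthest right. Olfactory receptors come next at 2.77%. In blue the zinc-finger genes (5.68%) and the genes of H3K9 methylation (5.52%) lie farthest right. Of the neuronal genes 7 of 18, and of the housekeeping genes 1, had a median above 0 for H3K36me3.

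For 18 neuronal markers the mean covered share was 3.62% for H3K36me3 at the median pool, from 0.232% to 10.4%, and 0.577% for H3K9me3, with H3K36me3 higher in 20 of 22 pools. The members were uneven. Only 7 of the 18 had a median above 0 for H3K36me3 and 4 for H3K9me3, and the median over the list was 0% for both marks, as it was over all genes. For 5 endothelial markers the shares at the median pool were 3.21% and 2.09%. No neuronal marker was called by reads (6 tested), where 31% of all tested genes were. Rbfox3, which encodes the neuronal antigen NeuN, had a median of 1.75% under H3K36me3 and islands in 19 pools. The median list shares of H3K36me3 were 0.142% for oligodendrocyte and myelin genes, 0.525% for astrocyte genes, 0.456% for microglia genes and 0.721% for markers of other tissues such as liver and muscle. For H3K9me3 each of these 4 medians was 0%. In the oligodendrocyte, astrocyte and microglia lists 1 gene each had a median above 0 for H3K36me3, and in the list of other tissues 2 had, one of them at 10.3%. With so few covered members the lists do not check the labelled tissue.

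Of 15 housekeeping genes 1 was tested by reads, Polr2a, the large subunit of RNA polymerase II. It was called for H3K36me3, as were 22.4% of all tested genes. It had a median of 8.12% under H3K36me3 and a listed H3K9me3 island in 1 pool. Hox genes (39) and replication-dependent histone genes (67) had a median share of 0% for both marks, and 0 of 75 ribosomal protein genes were tested by reads.

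Most genes of the methylation machinery itself were in the class of neither, 13 of 15 for H3K9 and 14 of 14 for H3K36, as were 91.4% of all genes. For 15 genes of H3K9 methylation the mean covered share was 5.52% for H3K36me3 at the median pool and 1.04% for H3K9me3, with H3K36me3 higher in 19 pools and H3K9me3 in 3. By reads 2 of 3 tested were called for H3K36me3 (22.4% of all tested genes were), and by covered share 2 of 12 (4.97% of all). Ehmt1, which encodes the H3K9 methyltransferase GLP, had a median of 4.86% under H3K36me3, islands in 20 pools and no listed H3K9me3 island. It entered the fit through H3K36me3 alone. Kdm4c, an H3K9 and H3K36 demethylase gene, had 5.51% under H3K36me3 and 0% under H3K9me3 (edgeR adjusted p = 1.74e-06). Kdm4d, a related demethylase gene that is expressed mainly in testis, had 14.8% under H3K9me3, from 10.02% to 18.98%, and 7.91% under H3K36me3, and was not called.

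For 14 genes of H3K36 methylation the list shares were 3.47% for H3K36me3 and 0.0222% for H3K9me3, with H3K36me3 higher in 22 of 22 pools. Nsd1, an H3K36 methyltransferase gene, had 5.44% under H3K36me3 and no H3K9me3 island, and Ash1l, another, had 5.51% and 0.311%. Both were called by reads (2 of 5 tested, against 22.4% of all tested genes). By covered share 1 of 11 was called for H3K36me3, against 4.97% of all.

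For 25 glutamate receptor genes the list shares were 3.13% for H3K36me3 and 2.31% for H3K9me3. By reads 6 of 17 tested were called for H3K36me3 (22.4% of all tested genes were), among them Gria1 and Grin2a, subunits of AMPA and NMDA receptors, and 0 for H3K9me3; by covered share 5 of 22 were called for H3K9me3 and 1 for H3K36me3 (8.47% and 4.97% of all). Grin2a was not called with TMM scaling. Gria2 had 4.20% under H3K9me3 and 1.07% under H3K36me3, and was called for H3K9me3 by covered share but not by reads. Of 30 potassium channel genes tested by reads, 7 were called for H3K36me3, close to the 22.4% of all tested genes. By covered share 6 of 47 were called for H3K9me3 and 2 for H3K36me3 (8.47% and 4.97% of all). By reads, 1 of 7 GABA-A receptor and 2 of 4 ephrin receptor genes tested were called for H3K36me3 (22.4% of all tested genes were). By covered share 1 of 6 ephrin receptor genes tested was called for H3K9me3 (8.47% of all). Counts this small do not set these families apart. Of 32 imprinted genes, 6 were tested by reads. Of these, 3 (Sgce, Zim1 and Usp29) were called for H3K36me3, where 22.4% of all tested genes were. Snrpn had 6.59% under H3K9me3 and 1.52% under H3K36me3 and was called for H3K9me3 by covered share and, with TMM scaling, by reads.

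Both marks were low at the ends of genes. Over 13520 genes of at least 10 kb, in 20 equal bins, H3K9me3 covered 0.915% ± 0.154 (SD over 22 pools) of the first bin, 2.90% ± 0.386 of the tenth and 1.13% ± 0.200 of the last. H3K36me3 covered 0.901% ± 0.250, 4.32% ± 1.63 and 1.49% ± 0.675. Both were higher in the last 4 bins than in the first 4, H3K36me3 by 0.660 points in 21 of 22 pools and H3K9me3 by 0.113 points in 22 of 22 (adjusted p = 1.6e-05 each, permutation test, 8 comparisons). In zinc-finger genes no difference between the ends was detected for either mark (adjusted p of 0.627 for H3K36me3 and 0.613 for H3K9me3, permutation test). In 21 neuronal and housekeeping genes H3K36me3 was higher in the last 4 bins by 2.27 points ± 3.21 (16 of 22 pools, adjusted p = 0.00277). H3K9me3 was lower there, 0.0645% against 0.509% in the first 4 bins (21 of 22 pools, adjusted p = 1.6e-05), where it was 0% in the first and the fourth bin and 1.77% in the third, so that few of the 21 genes carry this value. In receptor genes H3K9me3 rose from 7.89% ± 1.90 to 14.7% ± 3.22, and it reached 37.4% ± 3.97 in the flank before the gene, 4 to 6 kb from the start.

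Exons were covered less than introns by both marks. H3K36me3 islands covered 1.56% ± 0.869 of exon bases and 3.05% ± 0.763 of intron bases, and H3K9me3 islands 0.834% ± 0.159 and 2.86% ± 0.387. The exon to intron ratio was 0.478 at the median pool for H3K36me3 and 0.287 for H3K9me3, higher for H3K36me3 in 20 of 22 pools (permutation p = 7e-05, two-sided).

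**Figure D5:**
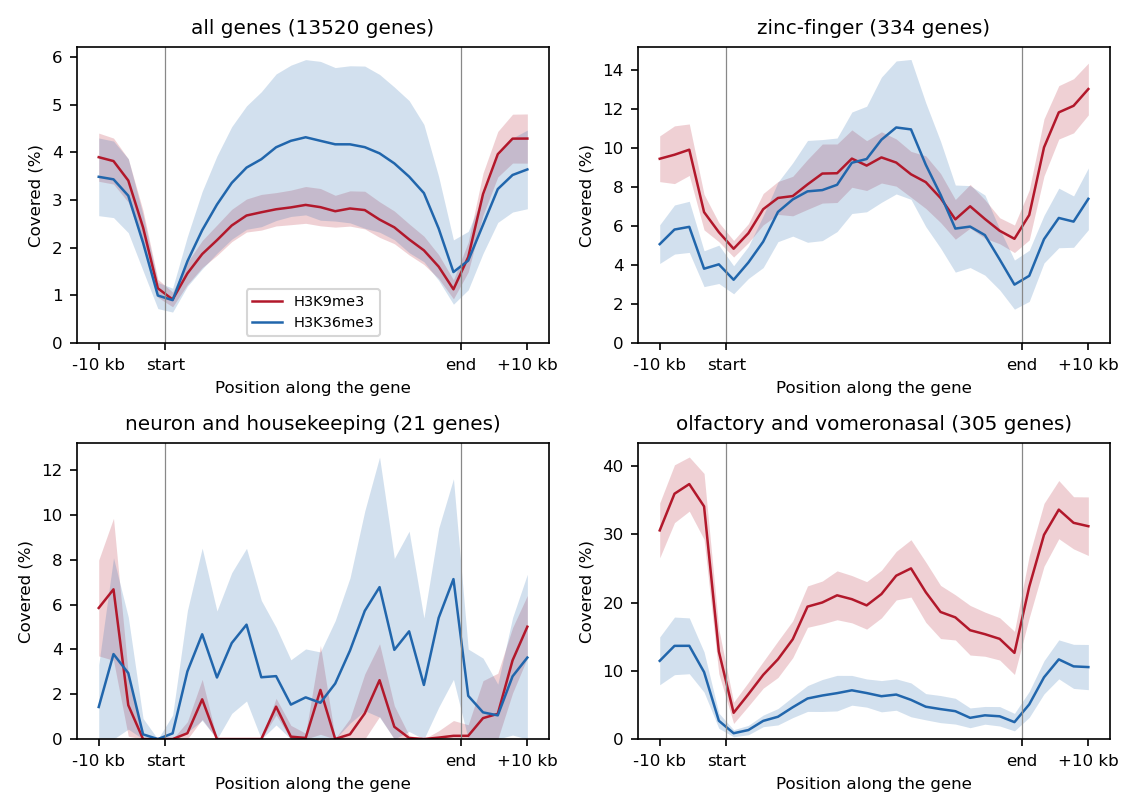
Mean covered share (%) along genes of at least 10 kb, in 5 bins of 2 kb on each side and 20 bins of the body, for 4 gene sets. Lines are means over 22 pools and bands are ± 1 SD. Over all genes both marks dip at the start and the end. H3K36me3 lies above H3K9me3 inside the average gene past the first bin and below it throughout the receptor genes, and in the 21 neuronal and housekeeping genes it is highest in the last bin of the body.

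Whether ethanol changed the balance of the marks was tested within each sex. In edgeR fits of mark by treatment with pool as block, 0 of 3296 genes were called in males, with 122 (3.7%) at an unadjusted p of at most 0.05, and 0 of 3389 in females, with 74 (2.18%). DESeq2 called 74 in males and 47 in females, and limma on the within-pool ratios 1 and 0. In males the first gene by p was Kcnh8, a voltage-gated potassium channel gene (edgeR adjusted p = 0.955). Its H3K36me3 values were 79.7 to 152 RPM in the 6 ethanol pools, with a median of 111, and 34.1 to 64.6 in the 5 water pools, with a median of 57.4. The ranges do not overlap, in a gene chosen for its p among 3296. Its H3K9me3 values overlapped, with medians of 138 and 131.

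Kcnb2, another potassium channel gene, had the same pattern, with 62.5 to 120 RPM of H3K36me3 in ethanol pools and 19.8 to 53.8 in water pools (edgeR adjusted p = 0.955). Vmn2r90 had an H3K36me3 island in 5 of the 6 ethanol pools and in 0 of the 5 water pools. In females the first by p was Chrm3, a muscarinic receptor gene (edgeR adjusted p = 1), with medians of 140 and 86.7 for H3K36me3 and 83.8 and 120 for H3K9me3. Plcl1, of the phospholipase C-like family, had medians of 76.0 and 100.5 for H3K36me3 and 51.4 and 42.2 for H3K9me3. Rev1, a translesion polymerase gene, had H3K9me3 islands in 5 of the 6 ethanol pools and in 0 of 5 water pools. None of the 6 passed adjustment in edgeR.

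Whole-library balance was compared by exact permutation tests (two-sided, all splits of 6 against 5 pools, 14 comparisons). With all islands none passed adjustment, and the smallest adjusted p was 0.131. With FDR ≤ 0.01, adjusted over a further 12 comparisons, none passed, and the smallest was 0.0649. In males the share of H3K36me3 length under H3K9me3 was 71.2% ± 7.63 in 6 ethanol pools and 62.6% ± 2.99 in 5 water pools (exact p = 0.0433, adjusted p = 0.152). With FDR ≤ 0.01 it was 59.5% ± 15.2 and 35.4% ± 2.402 (exact p = 0.0152, adjusted p = 0.0649). In females with FDR ≤ 0.01 the share of H3K9me3 length under H3K36me3 was 11.5% ± 3.81 with ethanol against 18.2% ± 3.07 with water (exact p = 0.0173, adjusted p = 0.0649), and in males it was 18.7% ± 12.6 against 8.44% ± 2.38 (exact p = 0.0974), a contrast of 10.3 points that leaving out 1 pool moved to between 6.17 and 13.3. The difference between the marks in gene share was smaller in male ethanol pools, -8.44 points ± 5.64 against -16.5 ± 3.16 (exact p = 0.0281, adjusted p = 0.131). In females H3K9me3 covered more than H3K36me3 by 58.0 Mb ± 9.98 with ethanol and 37.5 Mb ± 22.7 with water (exact p = 0.0281, adjusted p = 0.131), a contrast of 20.5 Mb that leaving out 1 pool moved to between 10.4 Mb (without female water replicate 2) and 23.6 Mb. The share of islands past the FDR in females was higher for H3K9me3 than for H3K36me3 by 38.7 points ± 6.64 with ethanol and 17.6 ± 17.6 with water (exact p = 0.0130, adjusted p = 0.131), and leaving out 1 pool moved the contrast of 21.1 points to between 14.4 (without the same replicate) and 26.4. The number of genes with H3K36me3 alone in a pool moved with these libraries, from 229 to 2032 in male ethanol pools, 905 to 1770 in male water pools, 314 to 1712 in female ethanol pools and 788 to 2968 in female water pools. The groups overlapped.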

How the data were processed

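ChIP-seq of H3K9me3 and H3K36me3 was made by the study from pooled PFC chromatin, with 8 technical immunoprecipitations combined per pool and mark. Per the study's methods and the submitters' processing notes, reads of H3K9me3 libraries were trimmed with CutAdapt and aligned to GRCm38 with Bowtie2 2.4.1, and blacklisted and multi-mapping reads were discarded. For H3K36me3 these steps are not stated there, and its coordinates fit GRCm38. Islands were called for each pool with SICER (200 bp windows, gaps of 400 bp for H3K9me3 and 600 bp for H3K36me3). The deposited lists give, for each island, ChIP read counts and input read counts, a p-value and FDR, and the fold ratio over input, all as the authors' caller wrote them. The lists have no header. They hold only islands, so reads elsewhere are not counted, and intervals or limits for a value of 0 are not given.

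Island reads were apportioned to gene bodies by length, rounded to whole counts, and fitted with edgeR 4.0.16 (R 4.3.3). DESeq2 1.42.0 was an alternative, and covered shares and within-pool ratios were fitted with limma 3.58.1 (log2 of RPM plus 1). Adjusted p-values are Benjamini-Hochberg over all features tested. A gene entered the edgeR fit through edgeR's filter on low counts, which a gene can pass through the mark in which it is high. Covered share was tested for genes with an island in at least 6 of 44 libraries. Tests of single values permuted samples in Python (numpy, scipy). Only some of the fits were tried on simulated data, and without the rule on direction that the calls between marks use. No result of these trials is given, so they do not show how often a call is wrong. The pools pair the marks because both come from the same 3 mice and the same input. The deviations of the marks of a pool from their group means correlated by 0.03 at the median (n = 22). Nothing states whether mice of a pool shared a litter, and p-values measure the spread between pools.

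Named genes were those of at least 2 kb with a given name: the 8 called genes of the largest ratio in each direction and the 8 most covered by both marks, at most 1 per 1 Mb, the 3 smallest p of each ethanol fit, and the extremes of each list. The members, gene lists and tests were chosen with earlier results of these data known. Chromosomes X and Y were not used here. The result of 1 gene is not reported here.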

Additional observations from a re-analysis of the deposited data

Results flagged for a closer look

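Library levels and overlaps were checked in 48 groups of 5 or 6 pools for a pool far from its group, which chance flags in about 1 of 20 groups, and 3 were flagged. In female water pools the H3K36me3 islands of replicate 4 covered 61.6 Mb, while the other 4 libraries covered 98.4 to 109 Mb. In female water pools 27.5% of the H3K9me3 islands of replicate 2 passed FDR ≤ 0.01, while the others had 72.0% to 81.6%. In male water pools the median H3K36me3 enrichment of replicate 1 was 1.72, while the others had 1.15 to 1.28. Leaving out these pools gave 1351, 1211 and 1193 genes that differed between marks by reads, against 1175 with all pools.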

How the results depend on the processing

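With FDR ≤ 0.01 the reads called 359 genes and 1734 windows (3461 with all islands); 294 of the 1175 genes kept their call and 322 were not tested. Input subtraction called 603 and the adjusted p alone 2360. Leaving out 1 pool gave 1181 to 1451 genes by reads and 1155 to 1396 by covered share, against 1144. TMM scaling kept 928 of the 1175 calls and turned 1. The classes of H3K9me3, H3K36me3 and both held 490, 1180 and 915 genes at a covered share of 5%, 311, 68 and 110 at 25%, 695, 314 and 70 with FDR ≤ 0.01, and 145, 64 and 250 when 18 of 22 pools had to agree. The difference in median enrichment between marks reversed with FDR ≤ 0.01, from 0.185 to -0.0535. The ethanol-by-mark fits gave 0 calls in both sexes under the other settings of edgeR, except 0 to 1 in males with 1 pool left out (1 without male ethanol replicate 6). DESeq2 gave 74 in males and 47 in females, and limma on within-pool ratios, added after seeing the data, 1 in males and 0 in females. The cause of these changes was not tested.

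Without the replicate block on pools, 1190 genes were called by reads, 1144 by covered share and 3440 windows. Blocking the ethanol fit on replicate number, which 5 ethanol and 5 water pools of a sex share, gave 0 calls in both sexes. Pools of equal number did not deviate together (all correlations under 0.1). Nothing states whether the numbers mark a shared litter or day.

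H3K36me3 lists held fewer island reads than H3K9me3 lists in all 22 pools; the depth of the whole libraries was not used here. At this depth a gene without a listed island is not shown to lack the mark.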

Other observations

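Outside the zinc-finger families, some gene clusters carried both marks past FDR ≤ 0.01. These were chosen after their values were seen. On chromosome 1, Sp140, a nuclear body protein gene next to Sp110, had a median of 84.2% of its body under H3K9me3 and 39.2% under H3K36me3 with FDR ≤ 0.01. Ugt1a1, a glucuronosyltransferase that clears bilirubin, had 100% and 42.6%, and Trpm8, the cold-sensing channel gene beyond Mroh2a, had 27.8% and 16.5%. On chromosome 7, Obox2, an oocyte homeobox gene, had 71.8% and 19.3%. Glo1 on chromosome 17, which encodes the detoxifying enzyme glyoxalase 1, was the reverse, with 22.2% under H3K9me3 and 26.8% under H3K36me3. Ratios over input at these genes were 1.32 to 2.29 for H3K9me3 and 1.198 to 1.51 for H3K36me3, and input densities were 17.2 to 34.7 reads per covered kb.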
